A study of Mus musculus with 4 samples.

Results

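The genes described here encode the MCM2-7 complex, the motor of the replicative DNA helicase, together with the genes that load or activate it. They are Mcm2, Mcm3, Mcm4, Mcm5, Mcm6 and Mcm7, the subunits of the hexamer, and Cdc6, Gmnn, Mcm10 and Cdc45. Members were all probe sets whose single gene symbol in the platform annotation was one of these 10 names, which gave 12 probe sets for 10 genes, of 12488 probe sets on the array. Liver RNA was measured on 2 arrays of PEPCK-TAg mice and 2 arrays of non-transgenic, wild-type mice. PEPCK-TAg mice carry a transgene for large T and small t, the tumour antigens of SV40, driven by the promoter of Pck1 (phosphoenolpyruvate carboxykinase), which is active in hepatocytes and some other tissues and responds to diet. All mice were male B6SJL hybrids aged 58 to 60 days, and after weaning both groups had free access for 4 weeks to one diet, made of 10% protein and 70% carbohydrate. The study asked how long exposure to low amounts of these viral proteins alters expression in the liver. The labels do not say whether the 2 arrays of a group hold RNA of separate animals or of pools, so the p-values measure the spread between arrays, which may be technical.

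Each origin of replication is prepared for use before S phase. The origin recognition complex and CDC6, helped by CDT1, load pairs of MCM2-7 hexamers onto DNA in an inactive form, and geminin, the product of Gmnn, binds CDT1 and stops further loading once S phase has begun. The hexamer becomes an active helicase when CDC45 and the GINS complex join it, and MCM10 takes part in that activation. Resting cells such as most hepatocytes of adult liver hold little of these transcripts, whose genes are well known targets of the E2F transcription factors. Large T binds the retinoblastoma proteins, which otherwise hold E2F back.

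The promoters are shown first because many of these genes are listed as E2F targets. A RefSeq promoter window (GRCm38.p6, 250 bases before to 50 bases after a transcript start) was found for 8 of the 10 genes, with 9 windows in all, and Mcm4 and Gmnn had no entry. The windows of Mcm5, Mcm7 and Cdc6 follow a start that lies inside the annotated gene, so they may not be the promoter in use. An E2F motif, written as TTTCCCGC, TTTCGCGC, TTTGCCGC or TTTGGCGC and searched on both strands, lay before the start in 4 of the 8 genes (Mcm5, Mcm6, Mcm7 and Cdc6). Of all 32851 promoter windows in the table, 1.86% held one there. Here and below, members are counted by gene, with a match in any window, and the share over all is per window. The second Mcm7 window held no E2F motif. Over the whole window of 300 bases the motif was present in 5 of the 8 genes, Mcm3 being the fifth, and in 2.26% of all windows. The next lines give, 5′ to 3′ and with the E2F motif in capitals, the bases outside the gene for Mcm5 (chr8:75109259-75109467, plus strand), the subunit of largest change, for Mcm6 (chr1:128359706-128359955, minus strand), whose probe set stayed dim, and for Mcm10 (chr2:5012792-5013041, minus strand), whose signal was lower in PEPCK-TAg liver.
Mcm5: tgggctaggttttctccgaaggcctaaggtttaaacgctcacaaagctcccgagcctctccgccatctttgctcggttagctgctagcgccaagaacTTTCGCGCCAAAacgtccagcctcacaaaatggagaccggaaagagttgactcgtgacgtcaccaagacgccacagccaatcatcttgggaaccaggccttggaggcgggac
Mcm6: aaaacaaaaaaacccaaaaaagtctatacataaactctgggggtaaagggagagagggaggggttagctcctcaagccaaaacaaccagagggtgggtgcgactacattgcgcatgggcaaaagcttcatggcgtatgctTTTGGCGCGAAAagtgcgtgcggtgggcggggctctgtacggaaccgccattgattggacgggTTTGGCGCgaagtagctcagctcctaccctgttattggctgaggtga
Mcm10: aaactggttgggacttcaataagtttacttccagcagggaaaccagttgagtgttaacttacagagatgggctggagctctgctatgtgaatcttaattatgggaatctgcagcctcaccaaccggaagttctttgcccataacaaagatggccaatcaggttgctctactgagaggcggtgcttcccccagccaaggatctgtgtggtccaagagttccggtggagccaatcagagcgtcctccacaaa
The capitals in Mcm5, and the first run of capitals in Mcm6, are overlapping matches on opposite strands. The Mcm10 bases held none of the spelled E2F letters. After the start lay 2 matches in Mcm3 (chr1:20820278-20820301 and chr1:20820263-20820282 with flanks) and 1 in Mcm7 (chr5:138171852-138171875), all on minus-strand genes.
Mcm3, nearer site: cttccgtgGCGGGAAAacttggga
Mcm3, farther site: tgggaagtTTTGGCGCcaag
Mcm7: tgacgacgTTTCGCGCcaatttcg
A CCAAT box (CCAAT) lay before the start in 7 of the 8 genes, all but Cdc6, against 33.8% of all windows. A GC box (GGGCGG) was found there in 5 of the 8 genes, against 32.7% of all windows, and the cell-cycle homology region (TTTGAA) in Mcm2 and Cdc45, against 16.0%. These matches describe letters only and show no binding.

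**Figure D1:**
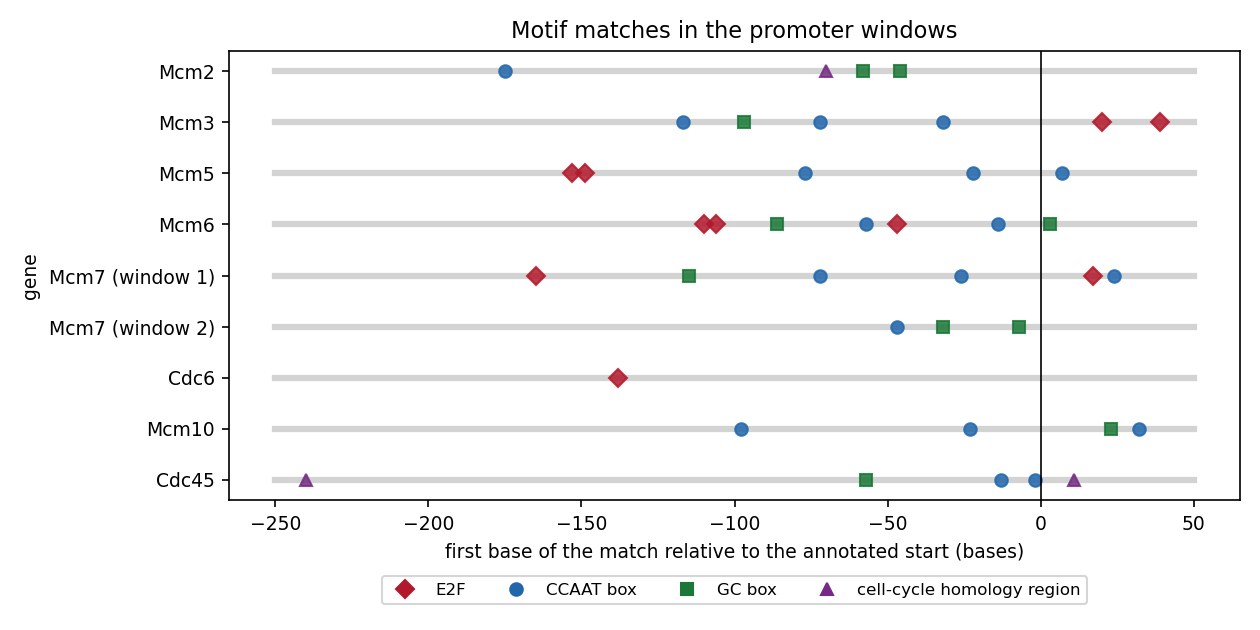
Positions of motif matches in the 9 promoter windows of 8 member genes. Each grey bar is 1 window, the x axis gives the first base of a match in bases from the annotated start (vertical line), and symbols mark the E2F, CCAAT, GC box and cell-cycle homology region motifs. E2F matches before the start appear in Mcm5, Mcm6, Mcm7 and Cdc6 and are missing from Mcm2, Mcm10 and Cdc45, and those of Mcm3 lie after the start.

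The values are MAS5 signals, a brightness per probe set on a linear scale. After trimming 2% of probe sets at each end, the arrays averaged 250.1 to 250.4, while the median signal was 84.8 and 89.1 on the PEPCK-TAg arrays and 79.2 and 75.8 on the wild-type arrays. Changes were tested with limma as differences of log2(signal + 13), PEPCK-TAg minus wild-type, over all 7453 probe sets whose mean log2 level reached the 40th percentile, and a change was called at a Benjamini-Hochberg adjusted p under 0.05. The added 13 makes the log2 change of a dim gene smaller than the ratio of its signals. Of these probe sets, 477 (6.40%) were called higher and 229 (3.07%) lower, and the median change over all of them was 0.01. The ratio of 3′ to 5′ actin control signals was 4.79 to 5.06 on the PEPCK-TAg arrays and 4.06 to 4.87 on the wild-type arrays. The same ratio for Gapdh was 2.95 to 3.36 on the PEPCK-TAg arrays and 3.67 to 3.80 on the wild-type arrays, so the groups did not overlap, and its part in the results was not tested. The Pck1 probe set, whose promoter drives the transgene, read 1605 and 565.5 on the PEPCK-TAg arrays and 2372 and 2308 on the wild-type arrays, a difference that was not called (adjusted p = 0.121 in limma, after Benjamini-Hochberg).

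Transcripts of 5 of the 6 hexamer subunits were higher in PEPCK-TAg liver, by 3.25-fold to 18.5-fold in mean signal, and the sixth, Mcm6, could not be judged because its probe set was dim on every array. Cdc6, which loads the hexamer, Gmnn, which limits loading, and Cdc45, which completes the active helicase, were higher by 2.36-fold to 3.41-fold. Mcm10 alone was lower, with a mean signal in PEPCK-TAg that was 0.420 of that in wild-type liver. In total 10 of the 12 probe sets passed the filter on dim probe sets, 9 of them were called higher and 1 lower, beside 6.40% and 3.07% of all probe sets tested. On the 2 wild-type arrays alone Mcm2 and 1 Mcm3 probe set would have fallen below the filter, so these passed only through their PEPCK-TAg level. With no filter all 12 were tested, and 7 were called higher and 0 lower, against 2.71% of all probe sets called higher. In bulk liver RNA a larger number of cells with a transcript and more transcript per cell cannot be told apart.

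**Figure D2:**
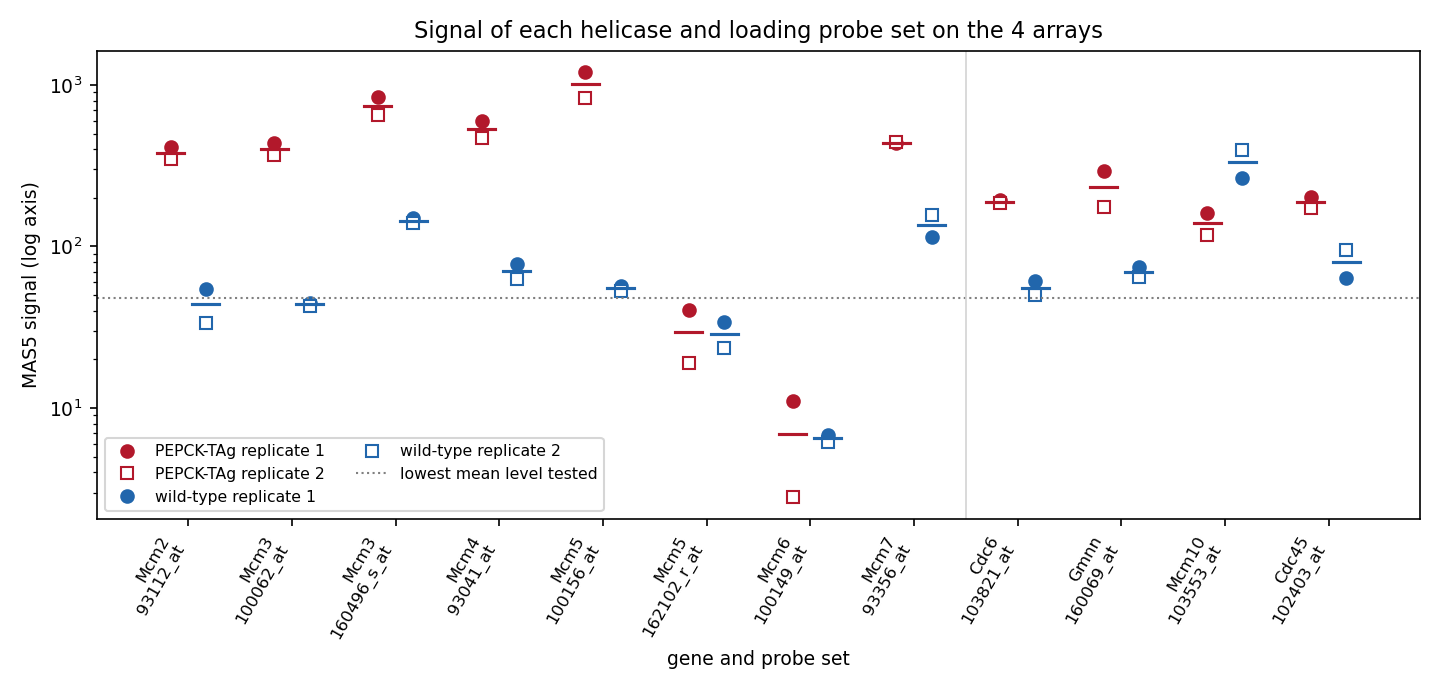
MAS5 signal (log axis) of the 12 member probe sets on each array, PEPCK-TAg in red on the left of each pair and wild-type in blue on the right, with filled circles for replicate 1, open squares for replicate 2 and a bar for the mean of 2 arrays. The dotted line is the lowest mean level that was tested (a signal of 48.1). The PEPCK-TAg arrays lie above the wild-type arrays for 9 probe sets, below them for Mcm10, and overlap them for the dim Mcm6 and second Mcm5 probe sets.

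Mcm5, a subunit next to the gate through which DNA enters the ring, had signals of 1201 and 834 on the PEPCK-TAg arrays and of 56.9 and 53.2 on the wild-type arrays (probe set 100156_at). Both PEPCK-TAg arrays lay far above both wild-type arrays, whose 2 values were close together. The mean was 1018 ± 259 in PEPCK-TAg and 55.0 ± 2.62 in wild-type liver (SD, n = 2 each), and the log2 change was 3.90 ± 0.22 (SE; 95% interval 3.38 to 4.42; limma, Benjamini-Hochberg adjusted p = 0.000670). It was the tenth largest rise of the 7453 probe sets tested. The other Mcm5 probe set, 162102_r_at, whose suffix marks relaxed rules of probe choice, read 40.2 and 18.9 in PEPCK-TAg and 34.2 and 23.4 in wild-type liver. Its groups overlapped, and it stood at the 30.7th percentile of mean level, below the filter. Tested with no filter, it had a change of -0.01 (95% interval -0.88 to 0.86). The 2 Mcm5 probe sets therefore disagree, and which of them reads the transcript was not tested.

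Mcm2, which lies on the other side of that gate, read 411 and 349 in PEPCK-TAg and 54.5 and 33.5 in wild-type liver (93112_at). The groups were well apart, although the wild-type values differed more between arrays than for Mcm5 or Mcm3. The mean was 380 ± 44.1 in PEPCK-TAg and 44.0 ± 14.9 in wild-type liver (SD, n = 2 each), and the log2 change was 2.81 ± 0.24 (SE; limma, Benjamini-Hochberg adjusted p = 0.00186).

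Mcm3 was measured by a pair of probe sets that moved the same way. The first, 100062_at, read 438 and 370 in PEPCK-TAg and 44.8 and 43.0 in wild-type liver, a log2 change of 2.87 ± 0.19 (SE; limma, Benjamini-Hochberg adjusted p = 0.00139). The other, 160496_s_at, whose probes can match more than 1 transcript, read 836 and 654 in PEPCK-TAg and 150.5 and 139 in wild-type liver, a log2 change of 2.26 ± 0.19 (SE; limma, Benjamini-Hochberg adjusted p = 0.00179). In neither probe set did the groups overlap, and the wild-type arrays differed little. The ratio of mean signals was 9.20 in the first and 5.15 in the second, and their 95% intervals on the log2 scale, 2.41 to 3.32 and 1.81 to 2.70, overlapped.

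Mcm4, a subunit of the hexamer that with MCM6 and MCM7 can unwind DNA in the test tube, read 594 and 466 in PEPCK-TAg and 77.4 and 63.0 in wild-type liver (93041_at). Every PEPCK-TAg value was several times every wild-type value, and the mean signal was 7.55-fold higher. The log2 change was 2.70 ± 0.20 (SE; limma, Benjamini-Hochberg adjusted p = 0.00170).

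Mcm7, the neighbour of MCM4 in the ring, read 434 and 444 in PEPCK-TAg and 115 and 155.5 in wild-type liver (93356_at). It had the smallest change of the 5 subunits that passed the filter, 1.62 ± 0.20 on the log2 scale (SE; 95% interval 1.15 to 2.09; limma, Benjamini-Hochberg adjusted p = 0.00590), and a ratio of mean signals of 3.25. The interval of Mcm5 began at 3.38, where that of Mcm2 ended (3.38), and lay above those of both Mcm3 probe sets, of Mcm4 (2.22 to 3.19) and of Mcm7. Whether the subunits' changes differ was not tested.

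Mcm6, whose product sits between MCM2 and MCM4 in the ring, read 11.1 and 2.80 in PEPCK-TAg and 6.80 and 6.20 in wild-type liver (100149_at). These values overlapped and stood at the 9.3rd percentile of mean level over the array, far below the filter. With no filter its change was 0.00, with a 95% interval of -0.57 to 0.57 on a scale that compresses such low signals, and no fold change is given. Its promoter, shown above, holds 3 of the E2F matches before the start. Whether this probe set can detect the Mcm6 transcript was not tested.

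Among the genes that act on the hexamer, Cdc6 read 194 and 185.5 in PEPCK-TAg and 61.2 and 50 in wild-type liver (103821_at). The PEPCK-TAg arrays agreed closely and lay clear of the wild-type arrays. The log2 change was 1.57 ± 0.21 (SE; limma, Benjamini-Hochberg adjusted p = 0.00806).

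Gmnn, which encodes the inhibitor geminin, read 293 and 176 in PEPCK-TAg and 74.6 and 64.3 in wild-type liver (160069_at). The groups did not overlap, but the 2 PEPCK-TAg arrays were further apart than for Cdc6. Its log2 change was 1.55 ± 0.27 (SE; limma, Benjamini-Hochberg adjusted p = 0.0189). The call was lost without wild-type replicate 1 (limma, Benjamini-Hochberg adjusted p = 0.0511), wild-type replicate 2 (0.0563) or PEPCK-TAg replicate 1 (0.0597), where the changes were 1.64, 1.46 and 1.20, and it was lost with no filter (0.0552), over a range of 0.00396 to 0.0597 in all alternatives.

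Cdc45, which joins the hexamer at the start of unwinding, read 203 and 172 in PEPCK-TAg and 64.1 and 95.2 in wild-type liver (102403_at). The lower PEPCK-TAg array was still above the higher wild-type array. Its log2 change of 1.13 ± 0.24 (SE; limma, Benjamini-Hochberg adjusted p = 0.0335) was the smallest rise among the members. It was not called without wild-type replicate 1 (limma, Benjamini-Hochberg adjusted p = 0.0888), PEPCK-TAg replicate 1 (0.122) or PEPCK-TAg replicate 2 (0.0594), nor with quantile normalization (0.0634), median centring (0.0519) or no filter (0.0817), and the alternatives spanned 0.0192 to 0.122.

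Mcm10 ran against the rest. Despite its name MCM10 is not a subunit of the hexamer but a separate DNA-binding protein. Its probe set, 103553_at, read 161 and 117 in PEPCK-TAg and 265 and 397 in wild-type liver. Both PEPCK-TAg arrays lay below both wild-type arrays, and the wild-type arrays differed from each other by more than the gap between the groups. The log2 change was -1.17 ± 0.25 (SE; 95% interval -1.77 to -0.56; limma, Benjamini-Hochberg adjusted p = 0.0369). The call was lost without wild-type replicate 2 (change -0.88; limma, Benjamini-Hochberg adjusted p = 0.101) or PEPCK-TAg replicate 2 (-0.96; 0.098), with no filter (0.0803) and with a prior without a mean-variance trend (0.0613), and the alternatives spanned 0.0208 to 0.101. It is the only probe set of Mcm10 on the array, and which part of the gene it reads is not given in the sources used here.

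**Figure D3:**
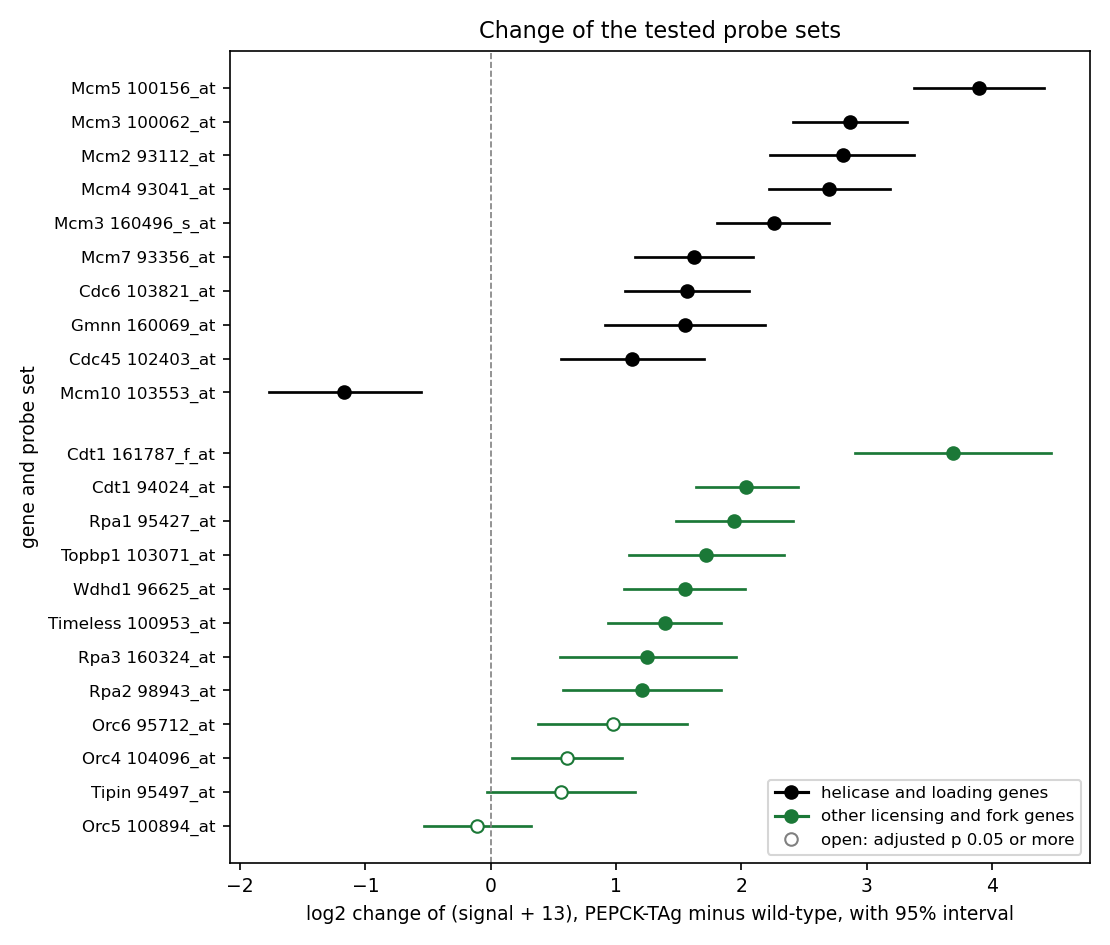
Log2 change of (signal + 13), PEPCK-TAg minus wild-type, for the 10 member probe sets tested (black) and the 12 tested probe sets of other licensing and fork genes (green). Bars are 95% intervals from limma, and open points had an adjusted p of 0.05 or more. The changes of the members run from 3.90 for Mcm5 to 1.13 for Cdc45, with Mcm10 at -1.17. Those of the other genes run from 3.69 for a Cdt1 probe set to -0.11 for Orc5.

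Over the 6 tested hexamer probe sets the median log2 change was 2.75, and over the 4 loading and activation probe sets 1.34, against 0.01 over all probe sets tested and 1.34 over the 477 called higher. The PEPCK-TAg arrays were both brighter than either wild-type array in 9 of the 10 tested member probe sets and below them in 1, where 30.2% and 26.3% of all tested probe sets had groups apart in these directions. All 6 hexamer probe sets were also called with any 1 array left out, with changes of 3.64 to 4.16 for Mcm5 and 1.42 to 1.82 for Mcm7. In those fits 1 group has a single array, which is assumed to vary like the arrays of the other group. Within the PEPCK-TAg group, 8 of the 9 probe sets called higher were brighter on replicate 1 than on replicate 2, Mcm7 being the exception, with a median difference of 0.23 on the log2 scale. In wild-type liver replicate 1 was the brighter in 7 of these 9, all but Mcm7 and Cdc45, with a median difference of 0.11. Over all tested probe sets PEPCK-TAg replicate 1 was the brighter in 50.6%, and over all probe sets called higher in 57.2%. No such share is given for the wild-type arrays, so their count has no background.

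**Figure D4:**
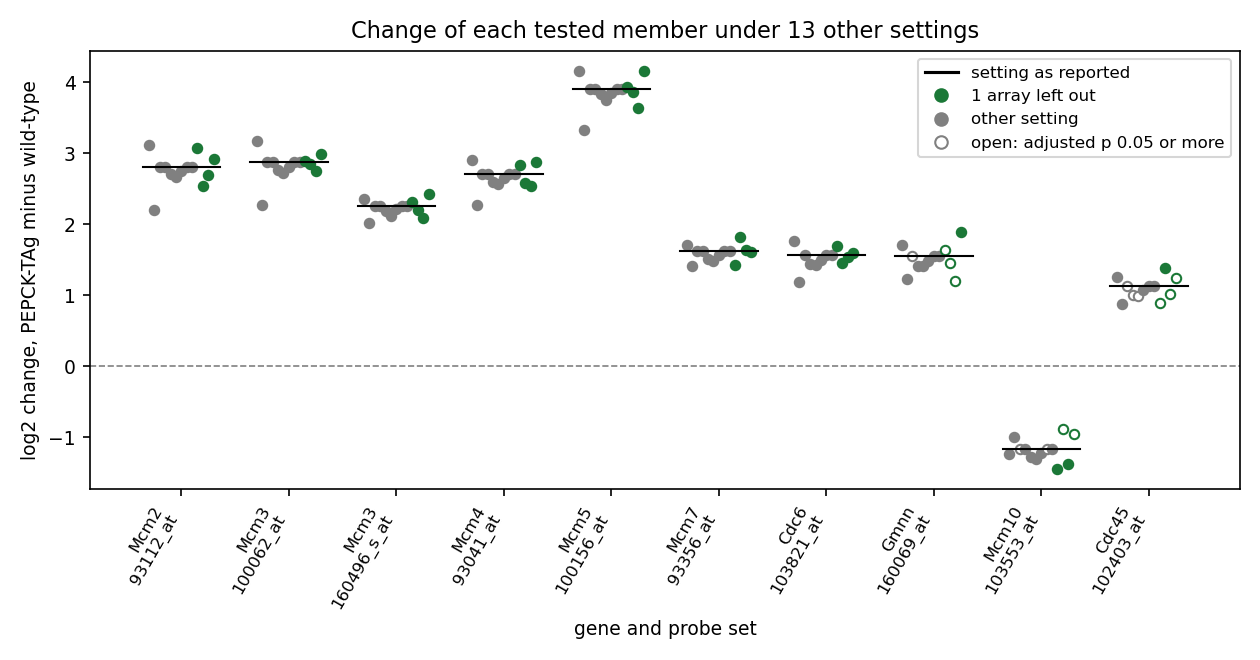
Log2 change of the 10 tested member probe sets under every other setting that kept the probe set (13, or 12 for Cdc6, Gmnn and Cdc45). Black bars are the reported values, green points leave out 1 array, grey points change another choice, and open points had an adjusted p of 0.05 or more. No point crosses 0, and open points occur in Gmnn, Mcm10 and Cdc45.

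Other genes of origin licensing and of the moving fork were read from a list of 27 genes, of which 16 were on the array with 19 probe sets. After the filter 12 probe sets of 11 genes remained, and 8 of them, of 7 genes, were called higher, beside 6.40% of all probe sets tested. None was lower by limma, also at an unadjusted p under 0.05 (0 probe sets). The median change of the 12 was 1.32. For 4 of the 8, those of Topbp1, Rpa2, Rpa3 and 1 of Cdt1, the wild-type level alone was below the filter. With no filter all 19 were tested and 6 were called higher, against 2.71% of all probe sets. Cdt1, which loads the hexamer together with CDC6 and is the target of geminin, read 601 and 540 in PEPCK-TAg and 121 and 136 in wild-type liver in probe set 94024_at, a log2 change of 2.04 ± 0.17 (SE; limma, Benjamini-Hochberg adjusted p = 0.00180). The second Cdt1 probe set, 161787_f_at, whose suffix marks probes shared within a sequence family, read 532 and 591 in PEPCK-TAg and 18.6 and 49.7 in wild-type liver and changed by 3.69 ± 0.33. Both probe sets rose, and their 95% intervals, 1.64 to 2.45 and 2.91 to 4.47, did not overlap.

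Topbp1, which helps to bring CDC45 to the origin, rose by 1.72 ± 0.26 on the log2 scale (SE). Wdhd1 and Timeless, which encode proteins that travel with the helicase, rose by 1.55 ± 0.20 and 1.39 ± 0.19. Rpa1, which encodes the large subunit of the protein that covers the unwound single strand, read 935.5 and 763 in PEPCK-TAg and 234 and 188 in wild-type liver and rose by 1.94 ± 0.19. Its partners Rpa2 and Rpa3 rose by 1.21 ± 0.26 and 1.25 ± 0.29, and limma gave Benjamini-Hochberg values of adjusted p = 0.0364 for Rpa2 and 0.0463 for Rpa3. The Rpa2 call was lost on leaving out any 1 of the 4 arrays (limma, Benjamini-Hochberg adjusted p = 0.139 for PEPCK-TAg replicate 1, 0.163 for PEPCK-TAg replicate 2, 0.0848 for wild-type replicate 1 and 0.0574 for wild-type replicate 2), as it was with no filter (0.0754) and with quantile normalization (0.0558), over a range of 0.0199 to 0.163 in all alternatives. The Rpa3 call was lost on leaving out PEPCK-TAg replicate 1 (0.0844), PEPCK-TAg replicate 2 (0.195) or wild-type replicate 1 (0.109), and under 5 other settings (an offset of 1, no filter, quantile normalization, median centring and cyclic loess), and its alternatives spanned 0.0179 to 0.195.

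No measured subunit of the origin recognition complex was called. Orc6 read 156 and 116 in PEPCK-TAg and 70.9 and 54.5 in wild-type liver, a difference of 0.98 ± 0.25 (limma, Benjamini-Hochberg adjusted p = 0.0586). The difference was 0.61 ± 0.18 for Orc4 (0.0924) and -0.11 ± 0.18 for Orc5 (0.758), with a 95% interval of -0.53 to 0.32 for Orc5. The probe sets of Orc1 and Orc2 and a second one of Orc5 were below the filter, as were those of Dbf4 and Cdc7, which encode the kinase that fires origins, and of Gins2, a subunit of GINS. Tipin, the partner of TIMELESS, had a difference of 0.56 ± 0.25 (limma, Benjamini-Hochberg adjusted p = 0.212).

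The genes whose pattern was most like that of the hexamer were sought among 5641 other genes, each by its brightest probe set that passed the filter. Likeness was the root mean square difference, over 4 arrays, between the gene's log2 values and the mean of the 6 hexamer probe sets, each centred on its own mean. That mean profile was 1.48 and 1.21 on the PEPCK-TAg arrays and -1.29 and -1.40 on the wild-type arrays. The 5 nearest were Aurka, a mitotic kinase (difference 0.030), Cdc20, an activator of the anaphase-promoting complex (0.055), Tubb6, a beta-tubulin (0.071), Prc1, a cytokinesis protein (0.072), and Smc2, a condensin subunit (0.102). Aurka read 250 and 204 in PEPCK-TAg and 26.8 and 24.3 in wild-type liver, and Smc2 read 425 and 294 in PEPCK-TAg and 42.6 and 44.7 in wild-type liver. The wild-type levels of Aurka and Smc2 alone were below the filter, so both were compared only through their PEPCK-TAg level. These genes were chosen for their likeness, so their changes are a description.

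Markers of other cell types were set beside the helicase genes, since liver RNA holds several cell types. The hepatocyte markers (6 genes, 7 probe sets) were bright on every array, with a summed signal of 56054 to 62445 in PEPCK-TAg and 69161 to 85138 in wild-type liver. Of the 7, 0 were called, beside 6.40% of all probe sets tested called higher and 3.07% lower. Their median log2 change was -0.32. At an unadjusted limma p under 0.05, for which no share over all probe sets is given, 3 were lower and 0 higher. The macrophage and neutrophil list (11 genes, 18 probe sets, 10 tested) had a summed signal of 8698 to 11362 in PEPCK-TAg and 2536 to 4565 in wild-type liver. Its probe sets of Mpeg1, Cd5l and Clec4f, 3 of the 10 tested, were called higher, beside 6.40% of all probe sets tested. Mpeg1 read 3144 and 2776 in PEPCK-TAg and 349 and 294 in wild-type liver. Much of the summed signal was that of Mpeg1, Cd5l and Clec4f. At an unadjusted limma p under 0.05, for which no share over all probe sets is given, 5 of the 10 were higher and 1 lower. The lower one, of Csf1r, read 52.7 and 28.6 in PEPCK-TAg and 97.9 and 76.1 in wild-type liver and was not called. In the tested probe sets of Adgre1, Marco and Lyz2, and in the other of Csf1r, the groups overlapped. The stellate cell list (6 genes, 10 probe sets, 7 tested) summed to 3097 to 4352 in PEPCK-TAg and 2806 to 3073 in wild-type liver. Much of these sums was Dcn, at 1738 and 2543 in PEPCK-TAg and 1834.5 and 1773 in wild-type liver. In this list 1 of the 7 tested probe sets, of Col3a1, was called higher, beside 6.40% of all probe sets tested. The median log2 change of the 7 tested was 0.5. At an unadjusted limma p under 0.05 3 were higher and 0 lower, again with no share over all probe sets given.

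The B and plasma cell list (4 genes, 5 probe sets) summed to 313 to 577 in PEPCK-TAg and 357 to 407 in wild-type liver, and the T and natural killer cell list (6 genes, 7 probe sets) to 160 to 180 in PEPCK-TAg and 172 to 206 in wild-type liver. Endothelial markers (5 genes, 6 probe sets) summed to 557.5 to 814 in PEPCK-TAg and 748 to 829 in wild-type liver, and red cell precursor markers (4 genes, 5 probe sets) to 921 to 1190 in PEPCK-TAg and 1196 to 2662 in wild-type liver. Bile duct markers (3 genes, 4 probe sets) were near 0 throughout, at 15.5 to 27.1 in PEPCK-TAg and 19.0 to 34.1 in wild-type liver. Markers of dividing cells (5 genes, 6 probe sets) summed to 3605 to 5006 in PEPCK-TAg and 637.5 to 653 in wild-type liver. Of the 6 probe sets 5 were called higher, beside 6.40% of all probe sets tested. One of the 5, an Mki67 probe set, read 672 and 431 in PEPCK-TAg and 5.80 and 8.70 in wild-type liver. For this probe set and those of Top2a and Cdk1 the wild-type level alone was below the filter. They were therefore tested only through their PEPCK-TAg level. The sixth, the other Mki67 probe set, read 70.1 and 75.1 in PEPCK-TAg and 99.1 and 81.9 in wild-type liver and was not called, so the 2 probe sets of this gene disagree. Which cell type carries the helicase transcripts was not tested, and neither was the part of the macrophage markers in these changes.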

How the data were processed

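Liver RNA of 2 PEPCK-TAg and 2 wild-type arrays (Affymetrix MG_U74Av2) was measured. Groups and replicate numbers came from the sample titles. The deposited values are signal intensities, 1 per probe set and array, which the authors made with MAS5, per the submitters' processing notes. Per the file headers, the arrays shared chip lot, fluidics station and scan day, and each had its own module and scan time. Control probe sets (66) were left out. PEPCK-TAg was compared with wild-type in limma 3.58.1 (R 4.3.3), using lmFit followed by eBayes with trend, on log2(signal + 13), with 2 residual and 4.61 prior degrees of freedom, two-sided, with Benjamini-Hochberg adjustment over 7453 probe sets. The number of arrays limits the precision. The members, lists and tests were chosen with earlier results of these data known. All member probe sets were named, as were the licensing genes past the threshold and up to 4 others of smallest p. Genes measured below the filter were named afterwards for completeness. Alternatives changed the offset, filter, normalization, variance prior and replicate block, or left out 1 array. Promoter sequences are from RefSeq (GRCm38.p6), and no array coordinates are given.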

Additional observations from a re-analysis of the deposited data

How the results depend on the processing

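The 6 called hexamer probe sets stayed called in every alternative run (other offsets of 1 and 50, no filter or the 60th percentile, quantile normalization, median centring, cyclic loess, no variance trend, the replicate block, and each array left out). Of 129 recomputed member values, 115 were counted as keeping their direction and side of the threshold, 14 kept the direction and lost the call, and 0 reversed. The 129 and the 115 include the no-filter values of Mcm6 and of the second Mcm5 probe set. These probe sets were tested in no other setting and had no reported call, so their values could not show whether a call held. The count of loading and activation probe sets called higher, 3 as reported, was 1 with no filter, 0 with the filter at the 60th percentile, where only Mcm10 was still tested, and 1 to 2 with an array left out. The count called lower, 1 as reported, was 0 with no filter and without a variance trend, and 0 to 1 with an array left out. The licensing and fork list had 4 higher calls at the 60th percentile, where 6 probe sets were tested, against 8, and 6 to 7 with an array left out. Over all probe sets the higher count was 294 to 401 and the lower count 94 to 147 with an array left out. The lower count was 105 with no filter, 117 without a variance trend and 409 with median centring, which gave 403 higher and put the median change over all tested at -0.14. The replicate block gave 696 higher and 444 lower calls and changed no member's call, and in the licensing list only Orc6 was gained (0.98; limma, Benjamini-Hochberg adjusted p = 0.0272). The deviations of same-numbered arrays from their group means had a correlation of 0.181 over probe sets, and with 2 pairs the numbers are not shown to pair the arrays. With no filter more probe sets were tested. The cause of the other differences was not tested. No depth is defined for arrays; Mcm6 and the second Mcm5 probe set are limited by low signal.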
